A study of Homo sapiens with 8 samples.

Results

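SF3b and SF3a are protein complexes of the U2 small nuclear ribonucleoprotein (snRNP), and the genes described here are their 10 core subunits. SF3b is formed by SF3B1, SF3B2, SF3B3, SF3B4, SF3B5, SF3B6 and PHF5A, and SF3a by SF3A1, SF3A2 and SF3A3. They were chosen by gene symbol, and all 10 were found among the 17010 genes of the deposited table. All 10 also passed the filter on low counts, which left 16488 genes for testing. RNA-seq was done in PC3, an established human prostate cancer cell line, grown in 3D culture in medium with 3% serum. SF3B2 small interfering RNA (siRNA), given for 72 h, was set against a control siRNA given for 72 h (siSF3B2 and sictrl). Pladienolide B at 0.5 µM for 24 h was set against dimethyl sulfoxide (PlaB and DMSO). The culture time was 72 h in every group. The duration of the DMSO exposure is not given in the labels. Each of these 4 groups had 2 libraries. A single cell line was used, and separate cultures are not stated for the libraries of any group, so every p-value rests on library-to-library spread that may be technical.

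The U2 snRNP recognises the branch point of introns. SF3b clamps the helix between U2 snRNA and the branch site, and SF3a joins SF3b to the rest of the particle. SF3b is also part of the U11/U12 di-snRNP of the minor spliceosome, and SF3B3 and SF3B5 are in addition subunits of SAGA, a histone-modifying coactivator. Pladienolide B, a bacterial macrolide, binds in a pocket between SF3B1 and PHF5A, where the branch-point adenosine would lie.

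Total counts were 61863787 and 48246180 in the siSF3B2 libraries, 51661299 and 57417980 in the sictrl libraries, 41504101 and 35461248 in the PlaB libraries, and 53156845 and 72983584 in the DMSO libraries. Both PlaB libraries stood apart: their median count per gene was 227 and 223.5, against 871 to 1399.5 in the other 6 libraries, and their scaling factors (TMM, from edgeR) were 0.632 and 0.663, against 1.13 to 1.21. Replicates also differed more from each other with PlaB, with a median absolute log2 ratio of 0.60, than with siSF3B2 (0.32), sictrl (0.17) or DMSO (0.18). Levels below are CPM, counts scaled to a common library size with the TMM factors, unless they are given as TPM, which also divides by transcript length. They are shares of the RNA in a library, so fewer cells and less RNA per cell cannot be told apart. Counts were per gene, so spliced, partly spliced and otherwise altered transcripts of a gene were not told apart. Where mRNA is written below, it means this gene-level measure. Markers of PC3 were present in all 8 libraries but lower in both PlaB libraries than in both DMSO libraries. The epithelial KRT8 was at 140.1 and 102 TPM in the PlaB libraries, against 621 and 624 TPM in the DMSO libraries. KRT18 was at 199 and 265 TPM with PlaB, against 764 and 695 TPM with DMSO, and the mesenchymal VIM was at 127 and 139 TPM with PlaB, against 1793 and 1206 TPM with DMSO. Their part in the members' changes was not tested.

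SF3B2, the siRNA target and the subunit that contacts pre-mRNA beside the branch site together with SF3B4, was the member with the largest difference with the siRNA. SF3B2 stood at 36.4 and 30.1 CPM in the siSF3B2 libraries, against 227.6 and 228.0 CPM in the sictrl libraries. Both siSF3B2 libraries were far below both controls, and the groups did not overlap. The level was 6.85-fold lower, a log2 change of -2.78 ± 0.24 (standard error, SE), with an edgeR quasi-likelihood adjusted p of 0.0513, just above the threshold of 0.05. DESeq2 gave an adjusted p of 1.40e-24 for the same gene, and over the 18 settings tried the adjusted p lay between that value and 1.00, with 7 of them under the threshold. The authors' deposited table gives SF3B2 a signed fold change of -6.86 with an adjusted p of 1.39e-12.

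None of the 10 members was called with the siRNA by edgeR, where 0% of all genes (0 of 16488) were called. At an unadjusted p under 0.05 edgeR had 1 member, SF3B2, and 638 genes in all, and DESeq2 called 33 genes (0.194%), 8 of them higher (0.047%) and 25 lower (0.147%), SF3B2 included. The other 9 subunits had log2 changes between -0.19, for SF3B1, and 0.22, for SF3B3, each with an edgeR adjusted p of 1.00. SF3B1, the large HEAT-repeat protein that closes around the branch helix, was at 245 and 341 CPM in the siSF3B2 libraries, against 326 and 345 CPM in the sictrl libraries. SF3B4, the binding partner of SF3B2, was at 69.0 and 54.9 CPM in the siSF3B2 libraries, against 68.9 and 58.2 CPM in the sictrl libraries. For both genes the groups overlapped. Both siSF3B2 libraries lay above both sictrl libraries for 2 members and below both for 2, against 19.9% and 19.2% of all genes.

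**Figure D1:**
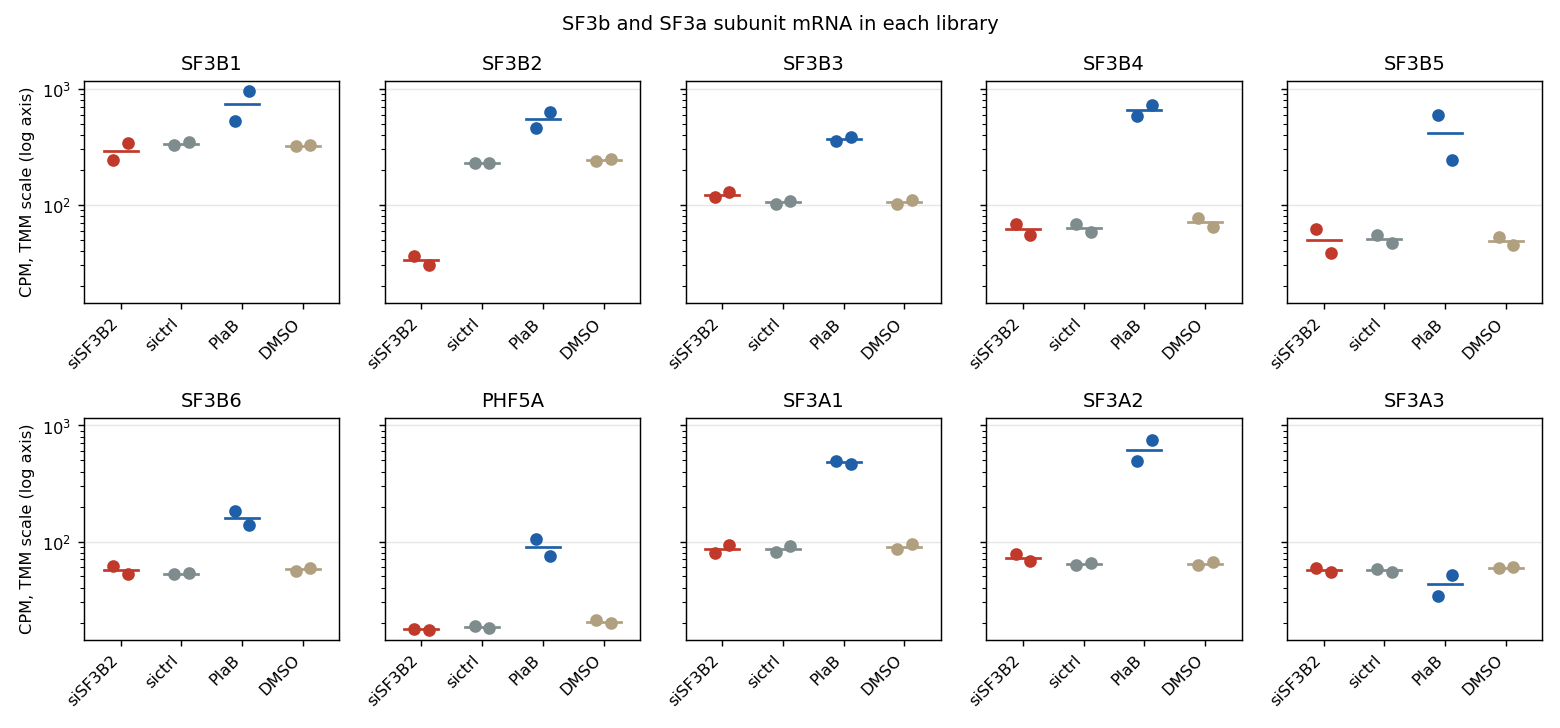
Level of each SF3b and SF3a subunit in every library (CPM on the TMM scale, logarithmic axis), by group in the order siSF3B2, sictrl, PlaB and DMSO, with 1 point per library. SF3B2 is low at 36.4 and 30.1 CPM with siSF3B2, SF3B4 is high at 579 and 729 CPM with PlaB, and SF3A3 is at 34.2 and 51.1 CPM with PlaB.

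Set against the other subunits, SF3B2 had the lowest mean mRNA level with its siRNA. By mean TPM it was rank 10 of 10 in the siSF3B2 libraries, at 26.7 ± 1.63 TPM (SD, n = 2), and rank 2 in the sictrl libraries, at 192 ± 3.91 TPM (SD, n = 2). Its ratio to SF3B4 in TPM was 0.274 and 0.271 in the siSF3B2 libraries, against 1.77 and 1.94 in the sictrl libraries. Its ratio to SF3B1 was 0.272 and 0.143 in the siSF3B2 libraries, against 1.18 and 1.01 in the sictrl libraries. Both ratios were lower in both siSF3B2 libraries than in either control. At the bottom of the siSF3B2 order SF3B3 and SF3B2 overlapped, at 27.2 and 34.9 TPM for SF3B3 and 27.8 and 25.5 TPM for SF3B2.

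With pladienolide B transcript levels were higher for 9 of the 10 genes, by 2.25-fold to 9.60-fold. The exception was SF3A3, a subunit of SF3a, so every gene of SF3b, which the compound binds, was higher. The edgeR test called 9 members higher and 0 lower (threshold 0.05), against 68% of all tested genes called in either direction, 32.5% higher and 35.5% lower. The members' median log2 change was 1.98, and that of all tested genes was -0.11. Both PlaB libraries were above both DMSO libraries for 9 members and below both for SF3A3, against 38.6% and 44.1% of all genes. The 10 members together took 0.242% and 0.293% of all counts in the PlaB libraries, against 0.124% and 0.132% in the DMSO libraries.

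Of the pair that forms the binding pocket, SF3B1 had the smaller and less steady change. SF3B1 was at 529 and 954 CPM in the PlaB libraries, against 320.2 and 324 CPM in the DMSO libraries. The groups did not overlap, but the PlaB libraries differed by 0.85 on the log2 scale, replicate 2 being the higher. The fitted log2 change was 1.20 ± 0.31 (edgeR adjusted p = 0.00959). Without PlaB replicate 2 it was 0.70, and without DMSO replicate 1 or 2 the edgeR adjusted p was 0.0553 or 0.0536. PHF5A, the small zinc-binding protein on the other side of the pocket, was at 105 and 74.5 CPM in the PlaB libraries, against 20.9 and 19.8 CPM in the DMSO libraries. Its log2 change was 2.14 ± 0.23 (edgeR adjusted p = 0.000101), 4.42-fold. PHF5DP, a PHF5A pseudogene in the table, held only 17 and 19 counts in the PlaB libraries, against 55 and 123 in the DMSO libraries. After scaling it was at 0.65 and 0.81 CPM with PlaB, against 0.89 and 1.39 CPM with DMSO. Its log2 change of -0.66 ± 0.39 was not called (edgeR adjusted p = 0.166).

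SF3B2 and SF3B4, which bind each other and grip the pre-mRNA upstream of the branch site, rose by very different amounts. SF3B4 stood at 579 and 729 CPM in the PlaB libraries, against 76.6 and 65.0 CPM in the DMSO libraries. That is a 9.24-fold difference, a log2 change of 3.21 ± 0.25 (edgeR adjusted p = 2.86e-05). SF3B2 was at 459 and 632 CPM in the PlaB libraries, against 237 and 248 CPM in the DMSO libraries. Its log2 change was 1.17 ± 0.23 (edgeR adjusted p = 0.00228), 2.25-fold. For both genes the PlaB libraries lay above both DMSO libraries.

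SF3B3, the beta-propeller scaffold, and SF3B5, a small protein bound to it, both rose. SF3B3 was at 358 and 385 CPM in the PlaB libraries, against 101 and 110.0 CPM in the DMSO libraries. The log2 change was 1.82 ± 0.19 (edgeR adjusted p = 8.89e-05), and the libraries within each group were close. SF3B5, a gene with 1 exon, was at 591 and 243 CPM in the PlaB libraries, against 52.3 and 44.6 CPM in the DMSO libraries. The log2 change was 3.10 ± 0.45 (edgeR adjusted p = 0.000471), and its PlaB libraries differed by 1.28 on the log2 scale, the widest gap of any member in any group. Leaving out PlaB replicate 1 gave 2.32 and leaving out PlaB replicate 2 gave 3.6. SF3B6, a small protein that crosslinks to the branch-point adenosine, was at 183 and 138 CPM in the PlaB libraries, against 55.5 and 59.6 CPM in the DMSO libraries. Its log2 change was 1.48 ± 0.21 (edgeR adjusted p = 0.000479), again without overlap.

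The 3 SF3a genes split. SF3A1, the scaffold that binds both other SF3a proteins, was at 498 and 463 CPM in the PlaB libraries, against 86.3 and 94.8 CPM in the DMSO libraries. SF3A2, a zinc-finger subunit, was at 492 and 745 CPM in the PlaB libraries, against 62.8 and 66.1 CPM in the DMSO libraries. Their log2 changes were 2.41 ± 0.21 (edgeR adjusted p = 3.85e-05) and 3.26 ± 0.26 (edgeR adjusted p = 3.15e-05), the second being the largest fitted change of the 10 members. SF3A3, a zinc-finger subunit needed to form the mature U2 snRNP, was at 34.2 and 51.1 CPM in the PlaB libraries, against 59.3 and 60.0 CPM in the DMSO libraries. Both PlaB libraries were lower, yet the log2 change of -0.48 ± 0.23 did not pass (edgeR adjusted p = 0.0947). SF3A3 was called lower in 4 of 18 settings, with an adjusted p of 0.00152 to 0.237 over all of them. SF3A1 shares 285 bases with CCDC157 and SF3A2 shares 881 bases with PLEKHJ1, each on the opposite strand. CCDC157 rose by 2.87 ± 0.44 (edgeR adjusted p = 0.00069) and PLEKHJ1 fell by 1.07 ± 0.36 (edgeR adjusted p = 0.0279), and their part in the members' counts was not tested, since the strand setting of the counting is not stated. Other pseudogenes of PHF5A, SF3A2, SF3A3 and SF3B4 were not analysed here.

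**Figure D2:**
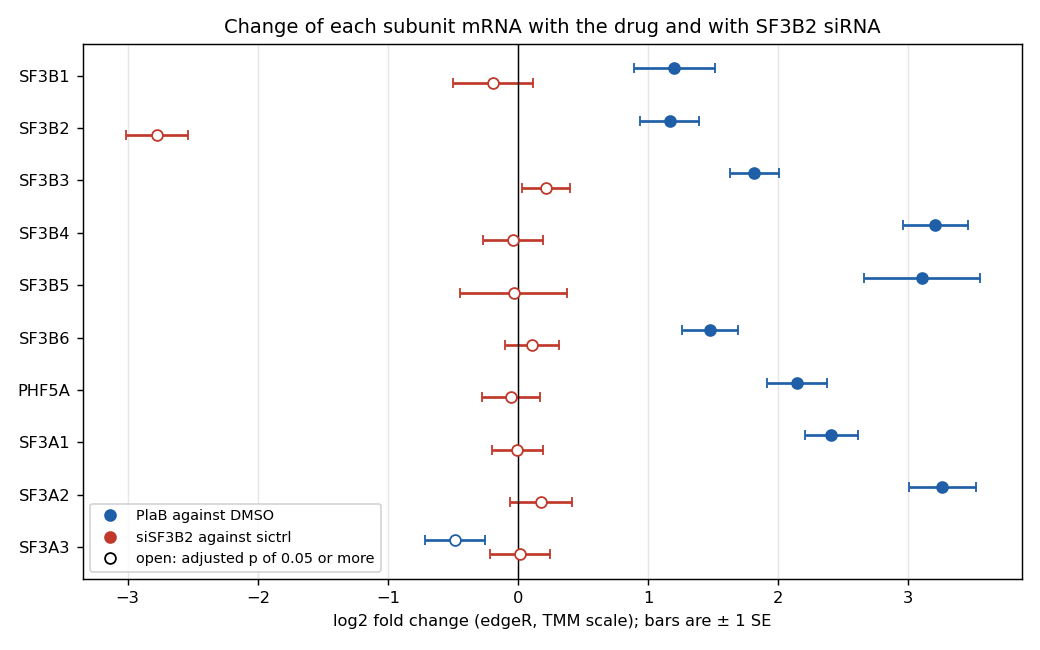
Fitted log2 fold change of each subunit with its SE, for PlaB against DMSO and siSF3B2 against sictrl, from edgeR; filled points passed an adjusted p of 0.05. With PlaB 9 subunits lie between 1.17 and 3.26 and SF3A3 at -0.48, and with the siRNA only SF3B2 lies far from 0, at -2.78.

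How the libraries were scaled set the size of these changes. The median log2 change of all genes with PlaB was -0.11 with TMM and 0.05 with relative log expression (RLE) scaling in edgeR. It was 0.07 with DESeq2, -0.20 with upper-quartile scaling, -0.97 with library size alone and -0.72 with limma on log2(TPM + 1). With library size alone the all-gene calls were 3313 higher and 8446 lower, against 5358 higher and 5854 lower with TMM. Under library size alone 7 members were called higher and SF3A3 lower, at -1.35 (edgeR adjusted p = 0.00152). SF3B1, at 0.34 (adjusted p = 0.381), and SF3B2, at 0.30 (adjusted p = 0.279), then missed the threshold. The limma fit on TPM gave the same split, with SF3B1 at 0.23, SF3B2 at 0.26 and SF3A3 at -1.40 (adjusted p = 0.613, 0.409 and 0.00286). SF3B1 was called in 14 of 18 settings, SF3B2 in 16 and each of the other 7 in 18. Relative to the median of all genes, a setting added after the data were seen, 9 members lay above it and SF3A3 below it under all 18 settings. SF3B4, for example, had a change of 3.31 relative to that median in the TMM fit, and SF3A3 one of -0.38.

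**Figure D3:**
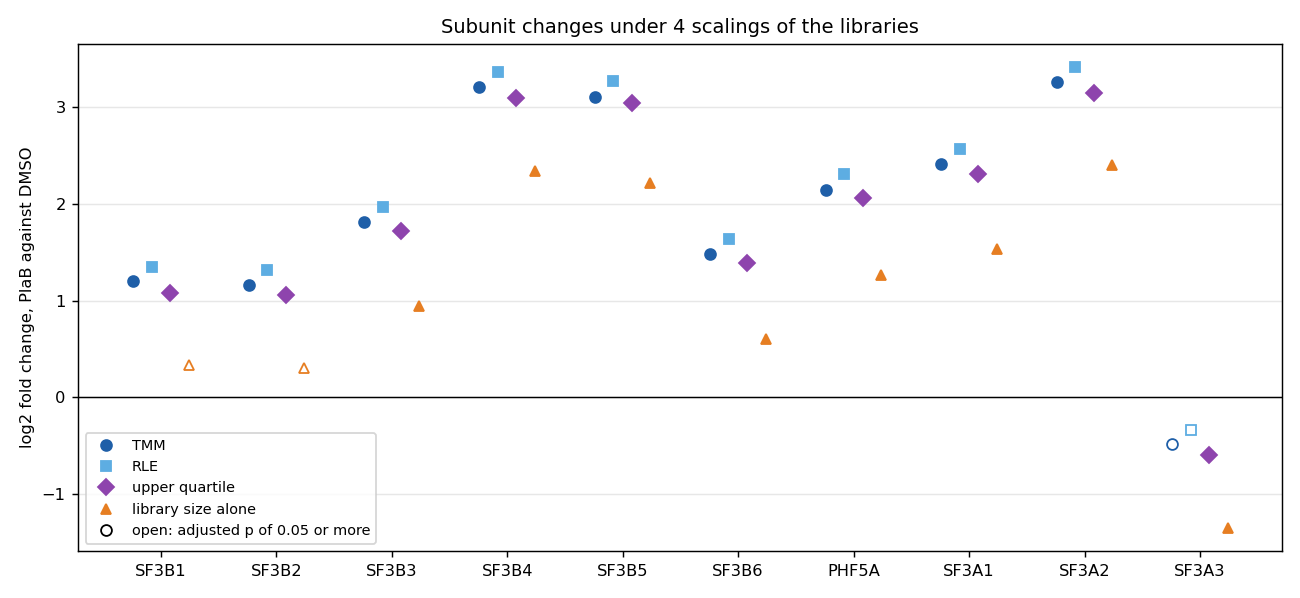
Log2 fold change of each subunit with PlaB against DMSO under different scalings of the libraries. SF3B1 and SF3B2 approach 0 with library size alone, at 0.34 and 0.30. The all-gene median, which is not drawn, is -0.97 there, and SF3A3 lies below that median under each scaling.

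Ratios between subunits of 1 library do not depend on that scaling, and they showed that the balance of the subunit mRNAs differed. Subunit proteins and assembled complexes were not measured. SF3A2 had 24.6 times as many TPM as SF3A3 in each PlaB library, against 1.81 and 1.88 times in the DMSO libraries. SF3A1 to SF3A3 was 7.93 and 4.88 in the PlaB libraries, against 0.790 and 0.858 in the DMSO libraries. SF3B4 to SF3B1 was 3.37 and 2.48 in the PlaB libraries, against 0.751 and 0.656 in the DMSO libraries. In each case both PlaB libraries were above both DMSO libraries. The siSF3B2 and sictrl libraries had SF3A2 to SF3A3 ratios of 2.23 and 2.12 and of 1.86 and 2.05. SF3B2 to SF3B1 overlapped, at 1.43 and 1.15 in the PlaB libraries and 1.17 and 1.34 in the DMSO libraries.

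Taking each gene's log2 TPM minus the mean of the 10 subunits in the same library gives the place of its mRNA among the subunits. With PlaB this place was higher in both libraries for SF3A2 (by 1.33), SF3B4 (1.30), SF3B5 (1.06) and SF3A1 (0.50). It was lower in both for SF3A3 (-2.41), SF3B1 (-0.75), SF3B2 (-0.72), SF3B6 (-0.44) and SF3B3 (-0.09), and PHF5A overlapped. These are descriptions of 2 libraries against 2 with no test. With the siRNA the place of SF3B2 differed by -2.53, and since SF3B2 is part of the mean, 6 other subunits came out higher by 0.23 to 0.50 in the same measure. The TPM values divide SF3B1 and SF3B2 by lengths that varied between libraries by 14.5% and 8.25%, judged from the counts and the deposited FPKM, while the other subunits varied by 1.34% or less.

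**Figure D4:**
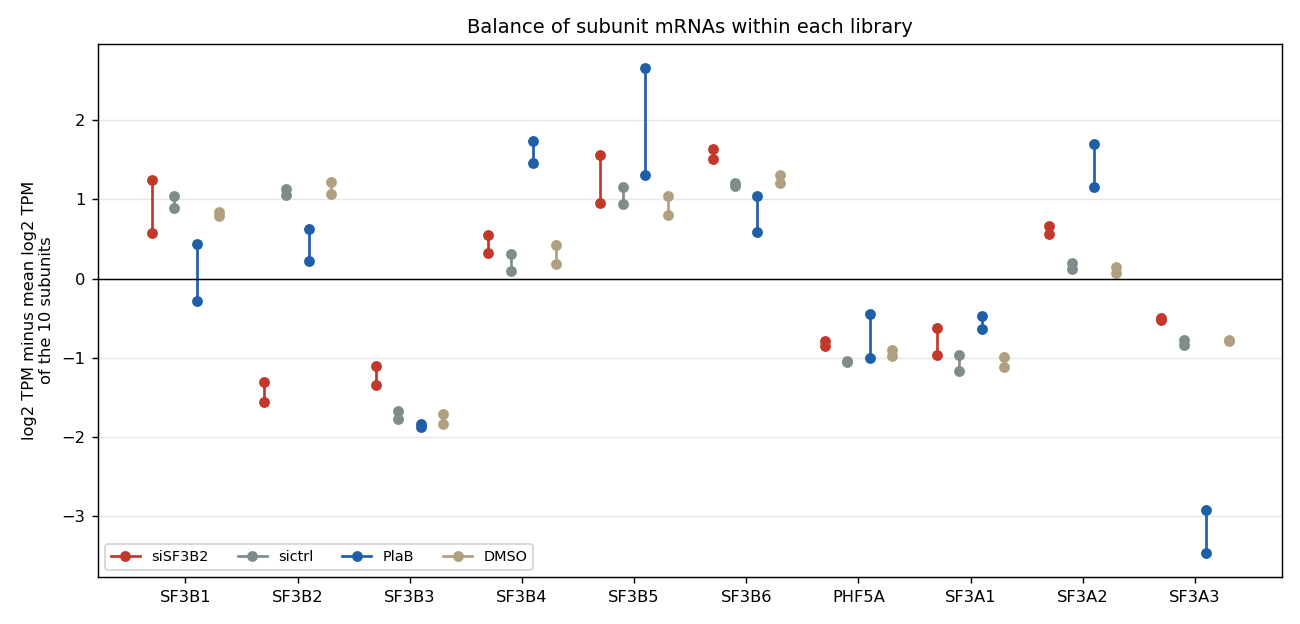
Place of each subunit's mRNA among the 10 subunits, as log2 TPM minus their mean log2 TPM in the same library, with 1 point per library in the order siSF3B2, sictrl, PlaB and DMSO. SF3A3 is at -3.46 and -2.92 with PlaB, against -0.78 and -0.77 with DMSO, and SF3B2 is at -1.31 and -1.56 with siSF3B2, against 1.13 and 1.05 with sictrl.

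The order of mRNA levels among the subunits differed accordingly. In the PlaB libraries it ran by mean TPM as SF3B5, SF3B4, SF3A2, SF3B6, SF3B2, SF3B1, SF3A1, PHF5A, SF3B3 and SF3A3. The neighbours SF3B5 and SF3B4, SF3B4 and SF3A2, SF3B6 and SF3B2, SF3B2 and SF3B1, and SF3A1 and PHF5A overlapped there. In the DMSO libraries it ran as SF3B6, SF3B2, SF3B5, SF3B1, SF3B4, SF3A2, SF3A3, PHF5A, SF3A1 and SF3B3. Only SF3B6 and SF3B2, and PHF5A and SF3A1, overlapped as neighbours in DMSO. In the siSF3B2 libraries SF3B6 again led, followed by SF3B5, SF3B1, SF3A2, SF3B4, SF3A3, SF3A1, PHF5A, SF3B3 and SF3B2, and in the sictrl libraries the order was that of DMSO. SF3B5, at the head of the PlaB order, was at 1049 and 525 TPM in the PlaB libraries, against 189 and 173 TPM in the DMSO libraries. SF3A3, at its foot, was at 15.1 and 27.9 TPM in the PlaB libraries, against 53.4 and 58.0 TPM in the DMSO libraries.

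Pladienolide B and SF3B2 depletion are 2 ways of acting on SF3b, and their effects on the SF3b and SF3a genes were compared in 1 model. The contrasts share no library. The PlaB effect minus the siRNA effect passed for 9 of 10 members, all higher with PlaB, against 53.7% of all genes in either direction and 25.2% higher. SF3B2 had the largest difference, 3.94 ± 0.33 on the log2 scale (edgeR adjusted p = 0.000145), with lower levels under its siRNA and higher levels under the compound. SF3B2 is the siRNA target, and its siRNA change of -2.78 is part of that difference. The other members had siRNA changes of -0.19 to 0.22, so their differences lie near their PlaB changes. SF3B4 differed by 3.25 (edgeR adjusted p = 0.000234) and SF3A2 by 3.09 (edgeR adjusted p = 0.000314). SF3A3 did not pass, at -0.50 ± 0.33 (edgeR adjusted p = 0.225). It was called lower with library size alone (-1.38, adjusted p = 0.00944), with limma on TPM (-1.37, adjusted p = 0.0208) and without PlaB replicate 2 (-0.83, adjusted p = 0.00751). SF3B1 differed by 1.40 ± 0.44 (edgeR adjusted p = 0.0281). SF3B1 lost its call without siSF3B2 replicate 1, without either sictrl library and without either DMSO library, with adjusted p of 0.071 to 0.103. With library size alone and with limma on TPM, SF3B1, SF3B3 and SF3B6 lost theirs. Between the control groups, sictrl against DMSO, 0 of 10 members passed, where edgeR called 0% of all genes (0 of 16488, with 152 at an unadjusted p under 0.05, and DESeq2 also 0). The members' log2 changes there lay between -0.16 and 0.07.

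Exon number is a property of the members that their choice did not use. Among 12799 protein-coding genes tested with a known exon number, the median log2 change with PlaB was 1.56 in 343 genes with 1 exon, 0.56 with 2 to 4 exons, -0.27 with 5 to 9, -0.73 with 10 to 19 and -1.01 in 1963 genes with 20 or more. The 3 largest SF3b subunits have 25 exons (SF3B1), 22 (SF3B2) and 26 (SF3B3), in the class where 15.2% of genes were higher and 53.8% lower. All 3 were above the upper quartile of that class, 0.14. SF3A1 with 16 exons, SF3A2 with 9, SF3B4 with 6, PHF5A with 4 and SF3B5 with 1 were also above the upper quartile of their classes, which makes 8 of 10 members. SF3B6 with 4 exons, at 1.48 against 1.88, and SF3A3 with 17 exons, at -0.48 against 0.70, were not. SF3A3 was nevertheless above the median of its class.

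The gap between the PlaB libraries moved with exon number as well. The median log2 difference of replicate 1 minus replicate 2 was 0.14 in genes with 1 exon and -0.54 in genes with 20 or more. SF3B5, with 1 exon, had a difference of 1.28, and the members with 20 or more exons had -0.85 (SF3B1), -0.46 (SF3B2) and -0.11 (SF3B3). SF3A2, with 9 exons, was at -0.60 where its class median was -0.03, SF3A1, with 16, was at 0.10 where its class median was -0.28, and the other members lay between -0.58 and 0.50. The siSF3B2 libraries had differences of 0.69 for SF3B5 and -0.48 for SF3B1, with class medians of 0.11 and -0.29. The part of this gap in the members' changes was not tested.

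**Figure D5:**
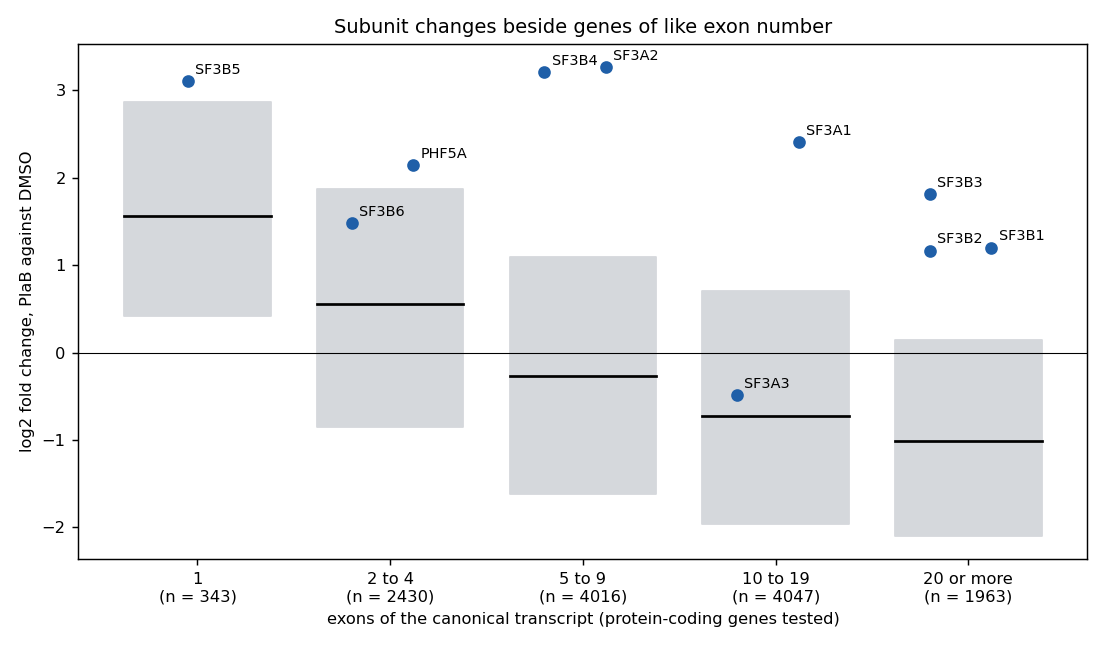
Log2 fold change with PlaB against DMSO by number of exons, with the median and quartiles of all protein-coding genes tested in each class and the subunits as named points. Medians run down the classes at 1.56, 0.56, -0.27, -0.73 and -1.01, and 8 of the 10 subunits lie above the upper quartile of their class.

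Promoters are shown for 4 members that span the range of change: SF3B4 and SF3A2, with the 2 largest, SF3A3, which was not higher, and SF3B2, the siRNA target. Each sequence is the 250 bases before the gene's start in RefSeq on GRCh38.p14, 5′ to 3′ on the gene's strand, and capitals mark matches to a motif on either strand.
SF3B4, chr1:149927804-149928053, minus strand: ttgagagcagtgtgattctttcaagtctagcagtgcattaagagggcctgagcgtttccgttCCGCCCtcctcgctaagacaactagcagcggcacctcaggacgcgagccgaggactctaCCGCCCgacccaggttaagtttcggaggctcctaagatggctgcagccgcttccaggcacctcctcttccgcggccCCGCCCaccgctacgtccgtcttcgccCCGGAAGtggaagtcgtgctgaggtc
SF3A2, chr19:2236574-2236823, plus strand: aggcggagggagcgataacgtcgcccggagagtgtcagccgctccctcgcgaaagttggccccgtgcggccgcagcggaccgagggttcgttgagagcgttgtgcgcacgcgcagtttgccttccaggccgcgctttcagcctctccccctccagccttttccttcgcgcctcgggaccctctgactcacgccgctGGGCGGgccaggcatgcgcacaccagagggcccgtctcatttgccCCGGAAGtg
SF3A3, chr1:37990023-37990272, minus strand: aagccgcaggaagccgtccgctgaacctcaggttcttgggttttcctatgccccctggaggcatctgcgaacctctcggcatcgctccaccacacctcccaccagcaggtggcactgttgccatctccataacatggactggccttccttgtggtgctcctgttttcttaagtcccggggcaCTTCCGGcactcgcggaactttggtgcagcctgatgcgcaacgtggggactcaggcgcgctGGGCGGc
SF3B2, chr11:66052114-66052363, plus strand: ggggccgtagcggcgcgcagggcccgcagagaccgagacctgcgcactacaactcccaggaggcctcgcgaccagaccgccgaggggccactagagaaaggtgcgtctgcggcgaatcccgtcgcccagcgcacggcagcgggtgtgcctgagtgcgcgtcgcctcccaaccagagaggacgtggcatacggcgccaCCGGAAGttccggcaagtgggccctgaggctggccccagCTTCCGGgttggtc
In GENCODE on GRCh38 the genes themselves span chr1:149923317-149927803 (SF3B4), chr19:2236824-2248655 (SF3A2), chr1:37956975-37990075 (SF3A3) and chr11:66050729-66069308 (SF3B2). The window of SF3A3 thus reaches into the GENCODE span of its gene, and the window of SF3B2 lies wholly within the span of its gene. The motifs searched were the ETS motif CCGGAAG, the GC box GGGCGG, the NF-Y motif CCAAT and the TATA box TATAAA, and no base belonged to more than 1 of them. A RefSeq window was found for 8 of the 10 members, SF3B3 and PHF5A being without one. The ETS motif was in 6 of these 8 (SF3B2, SF3B4, SF3B6, SF3A1, SF3A2 and SF3A3), against 13.6% of the 16422 windows of tested genes and 8.52% of all 35116 windows. The GC box was in 6 of 8, against 61.9% and 42.6%. CCAAT was in 1 of 8, SF3B5, against 32.7% and 32.0%, and the TATA box in 0 of 8, against 6.25% and 10.7%. The ETS motif was thus present both in SF3B4 and SF3A2 and in SF3A3, and a match is a run of letters, with no measurement of binding.

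Other proteins of the U2 snRNP and the branch-site machinery were mostly higher with pladienolide B too. Of 28 genes in that list, 24 were called higher and 2 lower with edgeR, beside 32.5% and 35.5% of all genes, with a median of 1.74 against -0.11 for all genes. The count was 16 higher and 4 lower with library size alone and 15 and 4 with limma on TPM. The 3 largest rises were SMNDC1, a tudor-domain splicing factor (3.6 ± 0.19, edgeR adjusted p = 1.75e-05), U2AF2, which binds the polypyrimidine tract (3.51 ± 0.28, edgeR adjusted p = 3.04e-05), and SNRPD1, of the Sm ring (3.42 ± 0.24, edgeR adjusted p = 2.2e-05). Those that fell were U2SURP (-1.60 ± 0.25, edgeR adjusted p = 0.000738) and SNRPA1, a protein specific to the U2 snRNP (-1.55 ± 0.31, edgeR adjusted p = 0.00288).

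In the minor spliceosome, with which SF3b is shared, 4 of 13 genes were higher and 4 lower, near the 32.5% and 35.5% of all genes, with a median of -0.18 against -0.11 for all genes. The split was 1 higher and 7 lower with library size alone and with limma on TPM, and without DMSO replicate 2 it was 3 and 2. RBM48 rose by 4.05 ± 0.22 (edgeR adjusted p = 1.75e-05), SNRNP35 by 1.38 ± 0.21 (edgeR adjusted p = 0.000588) and PDCD7 by 1.32 ± 0.32 (edgeR adjusted p = 0.00692), the last 2 being U11/U12 proteins that missed the threshold with library size alone and with limma on TPM. Without PlaB replicate 2 PDCD7 was at 0.69. PPIL2 fell by 2.79 ± 0.31 (edgeR adjusted p = 0.000122), ZCRB1, another U11/U12 protein, by 2.24 ± 0.21 (edgeR adjusted p = 5.3e-05) and CENATAC, listed under its older symbol CCDC84, by 0.97 ± 0.33 (edgeR adjusted p = 0.0296). The call of CCDC84 was lost without either PlaB library or either DMSO library, with RLE scaling and with the stricter filter.

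In SAGA, which holds SF3B3 and SF3B5, 8 of 18 genes were higher and 5 lower, beside 32.5% and 35.5% of all genes, with a median of 0.22 against -0.11 for all genes. With library size alone the split was 6 and 9 and the median -0.65, beside an all-gene median of -0.97, and with limma on TPM the split was 3 and 10 and the median -0.71, beside -0.72. The largest rises were TADA2B (2.53 ± 0.25, edgeR adjusted p = 7.54e-05), TAF5L (2.08 ± 0.41, edgeR adjusted p = 0.00265) and TADA1 (1.94 ± 0.36, edgeR adjusted p = 0.00189). Without PlaB replicate 2 TAF5L was at 1.21 and TADA1 at 1.25, and both missed the threshold with limma on TPM (adjusted p = 0.126 and 0.0981). The largest falls were KAT2B, an acetyltransferase (-3.85 ± 0.57, edgeR adjusted p = 0.000575), SUPT3H (-3.70 ± 0.28, edgeR adjusted p = 2.49e-05) and SUPT20H (-2.53 ± 0.24, edgeR adjusted p = 6.06e-05). With the SF3B2 siRNA edgeR called 0 genes in all 3 lists, with medians of 0.05, 0.01 and 0.00.

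Profiles were also compared, as the root-mean-square difference of centred log2 CPM over the 8 libraries. Genes other than the members were taken from 10682 protein-coding genes with a mean of at least 5 CPM. Among the subunits the closest pairs were PHF5A with SF3A1 (0.18), SF3B4 with SF3A2 (0.19) and SF3B3 with SF3B6 (0.21). SF3A3 was 0.73 from its nearest subunit, SF3B1, and SF3B2 was 1.13 from its nearest, PHF5A. Outside the complex the genes nearest to the mean of the 9 subunits other than SF3B2 included POLR2M (0.04) and MARCHF5 (0.06). POLR2M, for example, was at 169 and 170.4 CPM in the PlaB libraries, against 46.9 and 43.2 CPM in the DMSO libraries. For SF3B2 the nearest were IFIT3 (0.66), IFIT1 (0.67) and LRPAP1 (0.68). A distance to a single gene and a distance to a mean of 9 genes are unlike measures, so their sizes cannot be compared. IFIT3 was at 59.3 and 105 CPM in the siSF3B2 libraries, against 193 and 294 CPM in the sictrl libraries. In the PlaB libraries IFIT3 was at 1432 and 1320 CPM, against 268 and 419 CPM in the DMSO libraries. POLR2M and IFIT3 were picked on these same levels, which therefore add no separate evidence.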

How the data were processed

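Per the labels' protocols, total RNA went into stranded mRNA libraries. Per the submitters' processing notes the tools were Trimmomatic 0.38, HISAT2 2.10, Bowtie2 2.3.5.1 and edgeR, with the genome build GRCh38 and no roles given. Nothing used here names the program that counted reads, its gene models or its strand setting. The authors deposited 1 table of whole-number read counts for the 8 libraries, not normalized, in which the lowest count is 1, so genes at 0 in any library are absent. The deposited table also holds TPM, used to compare genes, and FPKM, used to check lengths. Its log2 columns, which per the file headers and values are CPM scaled by the authors with a constant for each library, were not used. For each comparison the authors also deposited a signed fold change (a score, negative where lower) and a p-value from an unstated test.

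The main test was edgeR 4.0.16 in R 4.3.3 (quasi-likelihood F-test on counts, robust, TMM, filterByExpr at a minimum count of 10, 4 groups in 1 fit, 4 residual degrees of freedom, two-sided, Benjamini-Hochberg adjusted p under 0.05 over 16488 genes). SEs are the log2 change divided by the root of F. The scripts were tested on simulated data. Alternatives included DESeq2 1.42.0, limma 3.58.1 on log2(TPM + 1), other scalings and filters, and leaving out each library. An exact permutation test of 2 against 2 libraries cannot reach 0.05, and none was run. Exon numbers and positions come from GENCODE release 44 on GRCh38, counted from 1.

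The members and lists were chosen with earlier results of these data known. From each list the called genes with the 3 largest rises and the 3 largest falls are named, and overlapping genes, the pseudogene in the table and the 3 genes of nearest profile are named as well, except that some of these are not reported here.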

Additional observations from a re-analysis of the deposited data

How the results depend on the processing

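For SF3B2 with its siRNA, the log2 change was -2.79 with RLE scaling (adjusted p = 0.036), -2.72 with upper-quartile scaling (0.0299), -2.76 with the stricter filter of 5 CPM in 2 libraries (0.0308), -2.78 with only the siSF3B2 and sictrl libraries (0.0288) and -2.79 with DESeq2 (1.40e-24), each under the threshold, so the count of members called was 1 under each of these 5, against 0 with edgeR as reported. Leaving out single libraries gave -2.93 to -2.65, with adjusted p under the threshold without PlaB replicate 1 (0.00663) or replicate 2 (0.00629), and counts of 0 to 1. Leaving out single libraries gave 5 to 9 called genes in the minor spliceosome list with pladienolide B, against 8. With the replicate number as a replicate block SF3B2 was at -2.77 (adjusted p = 0.15), 0 members were called with the siRNA and 9 with pladienolide B, and all-gene calls with pladienolide B were 11736, against 11212. The block changed no other count of members called. Same-numbered libraries deviated together, with correlations of 0.118 to 0.429 over the pairs of groups, but with 2 numbers per group and no such label the numbers were not taken as pairs. No change that passed the test in the comparisons of the members turned its direction under the alternatives run. Uncalled siRNA changes near 0 did, such as SF3B1 (-0.45 to 0.02), SF3B4 (-0.22 to 0.12) and SF3B5 (-0.43 to 0.27), and so did the median of the SAGA list with pladienolide B with library size alone (-0.65) and limma on TPM (-0.71), and that of the minor spliceosome list with the stricter filter (0.0024). The fit of only the groups of a contrast does not apply to the difference of effects. Where a group was left with 1 library, that library was assumed to vary like the other groups. The cause of these shifts was not tested. Pladienolide B libraries were the shallowest per gene and the least alike, which limits the precision of every value in that comparison.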
